A study of Mus musculus with 8 samples.

Results

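DNA replication and cell cycle genes were followed across mouse embryos of 2 stages and 2 genotypes. The set is a list of 41 genes chosen by name and role, in 4 subsets: 16 replication genes (the Mcm genes, Cdc6, Cdt1, Gins1, Gins2, Pcna, Rrm1, Rrm2, Tyms and Prim1), 11 cyclins and cyclin-dependent kinases, 12 mitotic genes, and 2 kinase inhibitors (Cdkn1a and Cdkn1b). Of these, 40 had a value, among 18193 genes measured in the whole series. For Ccnb1, the cyclin that starts mitosis, the annotation gave each probe set several gene symbols, and it has no value here. Each of the others was read by its brightest probe set, the one whose mean level across the 8 arrays was highest. The embryo propers came from mice on a BALB/c background and were either wild type or Runx1 knockout, collected at embryonic day 8.5 (E8.5) or 12 (E12), with no treatment named. Each of the 4 groups had 2 arrays, described as biological replicates in the study's methods. The study's results name 2 wild-type and 2 knockout embryo propers at each stage, which reads as an embryo proper for each array. Pooling of embryos is not mentioned, and the sources used here do not say how the allele was made. Runx1 encodes a DNA-binding factor without which the embryo makes no definitive blood cells. Values are log2 of the deposited Affymetrix intensities, after amplification of the RNA, and levels of different genes were not set against each other on this scale.

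A cell licenses its replication origins in G1, when Cdc6 and Cdt1 load the Mcm2-7 helicase onto DNA. In S phase the GINS complex and Mcm10 activate the helicase, Pcna clamps the polymerases to the template and primase makes their primers. Ribonucleotide reductase (Rrm1, Rrm2) and thymidylate synthase (Tyms) supply the nucleotides. Cyclins D, E, A and B switch on their kinases in turn from G1 to mitosis. Aurora and Polo kinases, the spindle checkpoint (Bub1, Bub1b, Mad2l1) and Cdc20 then carry the cell through chromosome separation. Early mouse embryos divide fast, and many cells leave the cycle as neurons, muscle and other tissues form. In whole embryos, fewer dividing cells and less RNA per dividing cell cannot be told apart.

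The transcription of these genes is known to be switched by E2F factors at the start of S phase and, for mitotic genes, through CHR elements and CCAAT boxes. Promoter windows from RefSeq (assembly GRCm38.p6), from 250 bases before to 50 after the transcription start, were found for 33 of the 41 genes. The letters searched on both strands were TTTCCCGC, TTTGGCGC, TTTCGCGC and TTTGCCGC for E2F, TTTGAA and TTTAAA for CHR, CCAAT for the CCAAT box, and TGTGGT and TGCGGT for RUNX. The 6 windows printed here, 5′ to 3′ with E2F, CHR and CCAAT matches in capitals, show replication and mitotic genes at the extremes of the stage difference, followed by a helicase gene with repeated E2F matches and the kinase gene with all 3 motifs. Cdt1 (chr8:122567765-122568064, plus strand) had the lowest stage difference among replication genes and Rrm1 (chr7:102441445-102441744, plus strand) the highest, while Bub1 (chr2:127831810-127832109, minus strand) and Plk1 (chr7:122159185-122159484, plus strand) were the same pair among mitotic genes. Mcm6 (chr1:128359656-128359955, minus strand) and Cdk1 (chr10:69352863-69353162, minus strand) were chosen after the values and matches were seen.
Cdt1: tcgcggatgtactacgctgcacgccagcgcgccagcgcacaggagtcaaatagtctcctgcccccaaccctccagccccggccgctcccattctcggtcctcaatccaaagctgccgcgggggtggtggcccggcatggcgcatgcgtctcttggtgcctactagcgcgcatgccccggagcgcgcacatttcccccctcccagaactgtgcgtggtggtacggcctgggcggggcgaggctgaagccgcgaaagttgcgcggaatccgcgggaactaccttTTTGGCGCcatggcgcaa
Rrm1: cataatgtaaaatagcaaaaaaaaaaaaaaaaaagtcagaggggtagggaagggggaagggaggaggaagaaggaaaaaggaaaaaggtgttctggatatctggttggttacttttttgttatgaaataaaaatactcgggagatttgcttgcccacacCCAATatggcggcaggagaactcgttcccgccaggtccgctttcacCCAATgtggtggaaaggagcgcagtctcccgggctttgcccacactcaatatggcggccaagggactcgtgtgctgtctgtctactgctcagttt
Bub1: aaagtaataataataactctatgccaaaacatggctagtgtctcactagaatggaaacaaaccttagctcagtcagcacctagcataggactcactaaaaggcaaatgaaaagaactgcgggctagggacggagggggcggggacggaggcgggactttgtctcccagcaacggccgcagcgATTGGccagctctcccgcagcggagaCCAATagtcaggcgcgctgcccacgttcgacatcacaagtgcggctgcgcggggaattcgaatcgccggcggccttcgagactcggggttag
Plk1: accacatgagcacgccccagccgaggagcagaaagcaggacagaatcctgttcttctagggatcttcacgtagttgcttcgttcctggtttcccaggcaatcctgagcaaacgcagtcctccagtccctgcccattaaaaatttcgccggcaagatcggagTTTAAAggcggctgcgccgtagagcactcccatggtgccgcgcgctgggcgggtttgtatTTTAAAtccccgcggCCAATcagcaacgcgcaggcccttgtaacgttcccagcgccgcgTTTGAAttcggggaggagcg
Mcm6: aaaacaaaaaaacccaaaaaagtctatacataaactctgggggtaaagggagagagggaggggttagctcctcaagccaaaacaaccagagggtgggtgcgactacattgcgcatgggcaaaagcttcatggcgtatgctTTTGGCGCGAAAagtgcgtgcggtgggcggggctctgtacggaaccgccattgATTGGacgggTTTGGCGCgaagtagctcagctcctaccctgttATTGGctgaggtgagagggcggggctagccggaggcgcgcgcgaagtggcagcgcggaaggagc
Cdk1: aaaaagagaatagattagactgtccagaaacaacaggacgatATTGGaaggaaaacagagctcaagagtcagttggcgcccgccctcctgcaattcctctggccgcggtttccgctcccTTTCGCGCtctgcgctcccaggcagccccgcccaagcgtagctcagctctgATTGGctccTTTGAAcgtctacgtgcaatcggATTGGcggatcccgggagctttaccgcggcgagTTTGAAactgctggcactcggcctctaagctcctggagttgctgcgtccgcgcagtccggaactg

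Cdt1 held 1 E2F match, which began 32 bases after the start site. Mcm6 held 3 E2F matches, of which the first and second overlapped, and 2 CCAAT boxes. Rrm1 and Bub1 each held 2 CCAAT boxes and neither E2F nor CHR letters. Plk1 held 3 CHR matches and 1 CCAAT box. Cdk1, the kinase that drives mitosis, held 1 E2F match, 2 CHR matches and 3 CCAAT boxes.

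Of 13 replication genes with a window, 6 held an E2F match (46.2%), namely Mcm3, Mcm5, Mcm6, Mcm7, Cdc6 and Cdt1, and 0 of 11 mitotic genes did. Among all 27025 genes with a window the share was 2.6%. CHR letters were found in 9 of 11 mitotic genes (81.8%), all but Bub1 and Mad2l1, and in 3 of 13 replication genes (23.1%), with 30.6% of all genes. CCAAT boxes lay in 25 of the 33 genes (75.8%) and in 41.1% of all genes. RUNX letters were found in 10 of the 33 (30.3%), among them Mcm3, Mcm6, Mcm10 and Rrm1, and in 25.0% of all genes. These are matches of letters in a short window and do not show binding.

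**Figure D1:**
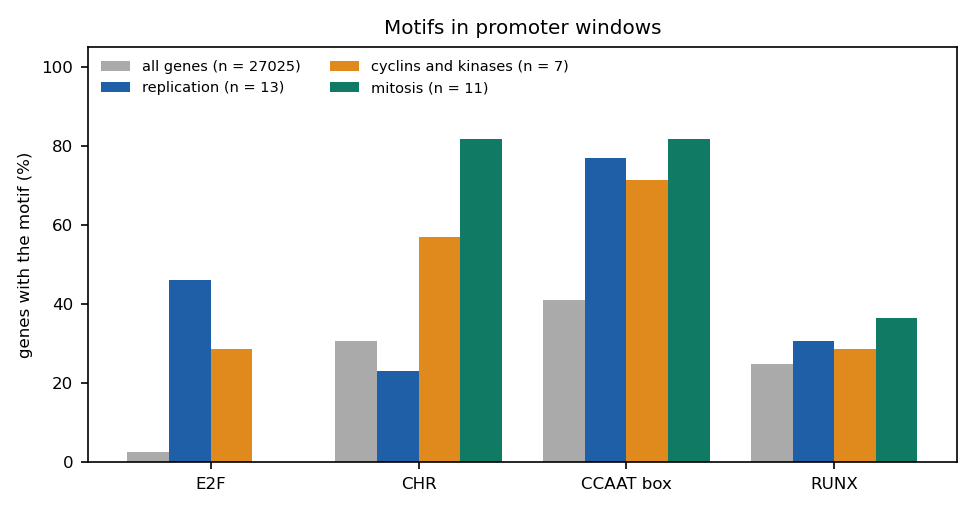
Share of genes (%) whose promoter window holds each motif, by subset, with all genes in grey and the number of genes in the key; the 2 inhibitors are not plotted. E2F letters were in 46.2% of replication genes and no mitotic gene, and CHR letters in 81.8% of mitotic genes.

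Several facts of the arrays bear on every value that follows. The bright end of the distribution differed between stages: the 99th percentile over probe sets lay between 12.24 and 12.30 in E8.5 arrays and between 10.51 and 11.09 in E12 arrays. A gene that kept the 95th percentile of its array read 10.81 at E8.5 and 9.69 at E12, a difference of -1.12, one at the 75th percentile changed by -0.55 and one at the median by 0.21. Most of the cell cycle genes were bright, so each averaged stage difference is given as deposited and after quantile normalization, which gives all arrays 1 distribution. For some genes the percentile among all genes of the same array is given too. Whether the 8 arrays were normalized together is not given in the sources used here. E8.5 wild type replicate 1 stood apart. All 10 measured trophoblast markers were above the E8.5 mean there, with a summed level of 15.02 against 10.09 to 11.54 in the other E8.5 arrays, and Prl7a1 at 12.96 against 4.17 to 4.37. Red-cell markers were high in E8.5 wild type replicate 2, with 11 of 13 above the stage mean and a summed level of 15.36 against 13.53, 13.7 and 14 in the other 3. Runx1 itself read 6.16 and 5.95 in wild-type E8.5 arrays against 6.41 and 6.86 in knockout, and 7.06 and 6.39 against 7.10 and 6.86 at E12. Where its probes lie relative to the disrupted part is not known here, so these values check nothing about the labels.

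The cell cycle genes were among the brighter transcripts at both stages. Their median percentile lay from 93.0 to 94.4 in the E8.5 arrays and 92.3 to 93.6 in the E12 arrays. In each array 13 to 17 of the 40 lay at or above the 95th percentile. Mcm7, a helicase subunit, kept a percentile of 99.5 to 99.8 in all 8 arrays, and Pcna, the polymerase clamp, 98.3 to 99.1. For replication genes alone it spanned 93.6 to 94.8 in E8.5 arrays and 93.4 to 94.4 in E12 arrays, for mitotic genes 93.5 to 95.4 and 91.2 to 93.1, and for cyclins and kinases 88.9 to 93.6 and 92.2 to 94.3. The mitotic medians thus did not overlap between the stages, and the other ranges did. Near the top of the scale a percentile has little room to move.

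**Figure D2:**
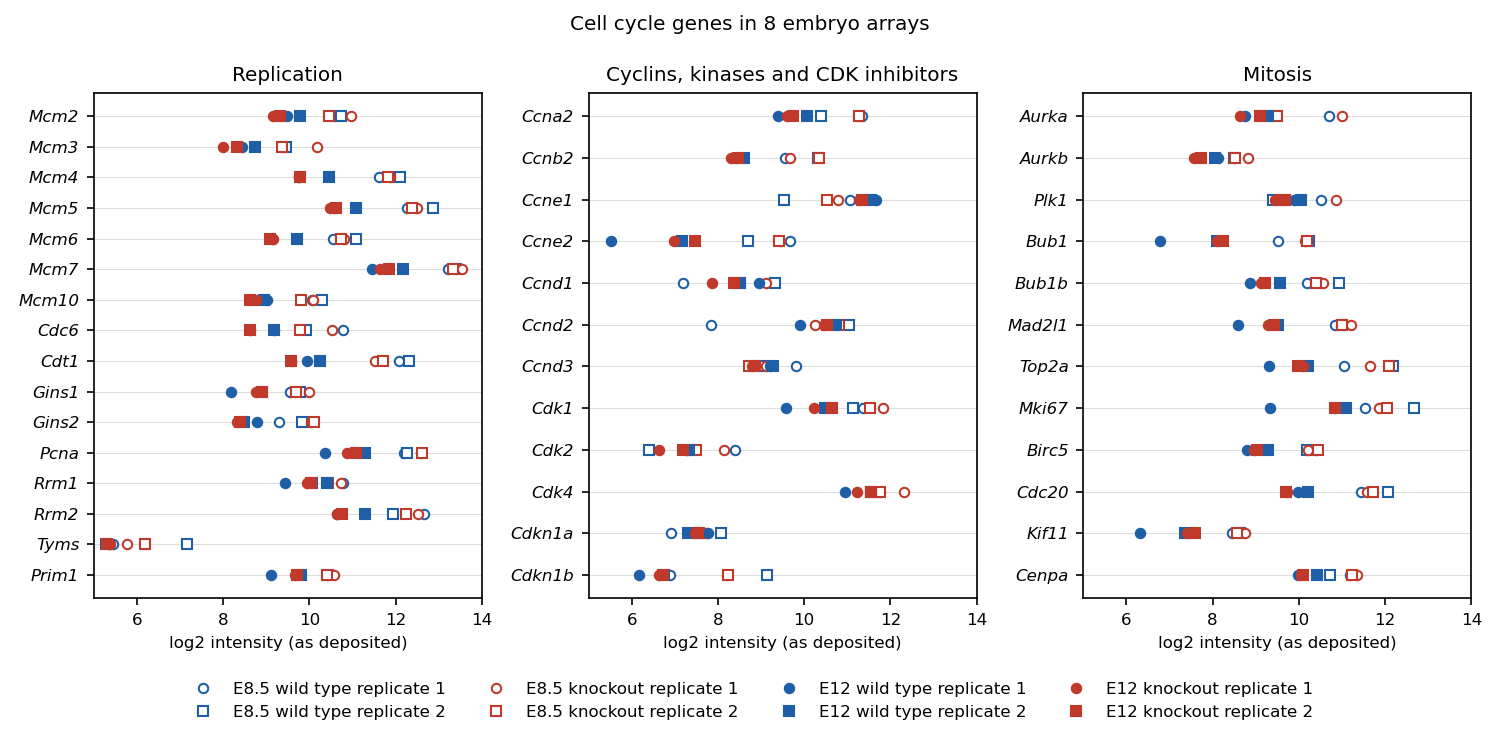
Level of each of the 40 genes (log2 intensity as deposited) in each of the 8 arrays. Open symbols are E8.5 and filled ones E12, wild type is blue and knockout red, and replicate 1 is a circle and replicate 2 a square. For Cdt1 the 4 E12 arrays lie at 9.56 to 10.24 and the 4 E8.5 arrays at 11.53 to 12.30, and for Ccnd2 E8.5 wild type replicate 1 lies alone at 7.83.

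As deposited, replication and mitotic genes were lower at E12 than at E8.5. Averaged over genotypes, 38 of the 40 genes were lower and 2 were higher, with a median log2 difference of -1.30. By limma, with p-values adjusted for all probe sets by the Benjamini-Hochberg method and a threshold of 0.05, 29 fell and 1 rose, while 43.1% of all probe sets were called in this comparison (22.5% lower, 20.6% higher), and among genes read by their brightest probe set 26.8% were lower and 23.5% higher. Of 16 replication genes 14 fell (median -1.33), of 12 mitotic genes 10 fell (median -1.38), and of 10 cyclins and kinases 4 fell and 1 rose (median -0.52). These counts use the brightest probe set of each gene, and the gene that rose was Ccne1. For Ccne1, Cdkn1b, Top2a and Cenpa another probe set was called in the opposite direction. For comparison, a gene at a constant 95th percentile of its array differed by -1.12, one at the 90th by -0.94 and one at the 75th by -0.55. The part of this shift in the subset medians was not tested.

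After quantile normalization 7 of the 40 fell and 4 rose, beside 36.0% of all probe sets called (17.5% lower, 18.5% higher), and 16.8% lower and 24.2% higher among genes. The subset medians were then -0.265 for replication, -0.252 for mitosis and 0.359 for cyclins and kinases. The genes that fell on both scales were Cdt1, Mcm4, Ccne2, Bub1, Mad2l1, Cdc20 and Kif11. By their brightest probe sets Rrm1, Ccne1, Ccnd3 and Cdk4 rose on the quantile scale, of which only Ccne1 was called as deposited. By percentile, all E12 arrays lay on one side of all E8.5 arrays for 14 of the 40 (9 lower, 5 higher), beside 44.8% of all genes. As deposited that was the case for 32 of the 40, beside 52.5% of all genes.

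**Figure D3:**
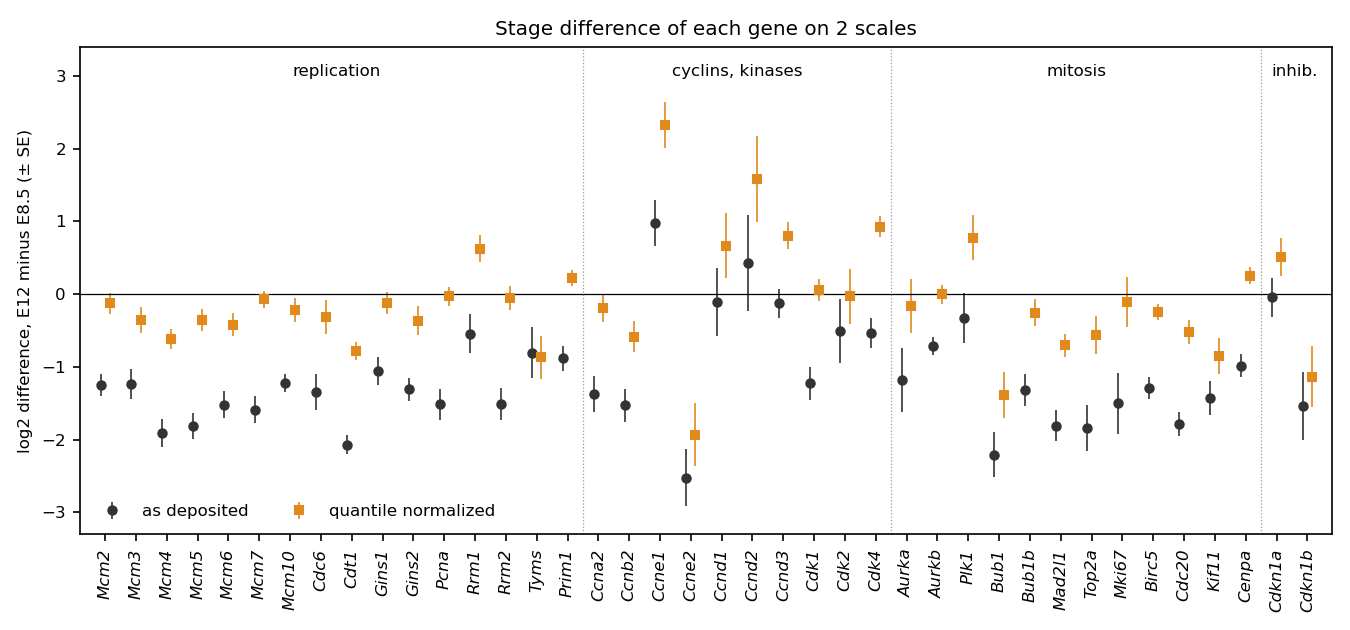
Log2 difference, E12 minus E8.5 averaged over genotypes, for each gene, with bars of 1 SE from the limma fit on 8 arrays; circles are values as deposited and squares quantile-normalized values. The replication subset moves from a median of -1.33 to -0.265, while Ccne2 (-2.52 and -1.93), Bub1 (-2.21 and -1.39) and Cdt1 (-2.07 and -0.78) stay below 0 on both scales.

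Among the licensing factors, Cdt1 changed on every scale. At E8.5 it read 12.07 and 12.30 (wild type) and 11.53 and 11.71 (knockout), and at E12 9.95 and 10.24 against 9.58 and 9.56. The stages did not overlap. The difference was -2.07 (SE 0.13, limma adjusted p = 0.00017) as deposited and -0.78 (SE 0.13, adjusted p = 0.00442) after quantile normalization, and the mean percentile went from 98 to 95.6. Cdc6, its partner in loading the helicase, fell by 1.34 as deposited (SE 0.24, adjusted p = 0.00537) and differed by -0.31 on the quantile scale (adjusted p = 0.327). Its E8.5 arrays spanned 9.77 to 10.77 and its E12 arrays 8.62 to 9.18.

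By its brightest probe set each subunit of the Mcm2-7 helicase fell as deposited, with differences from -1.23 (Mcm3) to -1.91 (Mcm4). None of their E12 arrays reached an E8.5 array. Dimmer probe sets of Mcm5 (-0.92, adjusted p = 0.0521) and Mcm7 (-0.66 and -0.93, adjusted p = 0.401 and 0.0513) were not called. A further Mcm7 probe set fell by 1.67 (adjusted p = 0.000784). Mcm4 read 11.62, 12.11, 11.86 and 11.82 at E8.5 and 9.76, 10.46, 9.76 and 9.78 at E12 (wild type replicates 1 and 2, then knockout). It was the subunit called after quantile normalization (-0.62, SE 0.14, adjusted p = 0.0139), with a percentile of 97.3 to 98.4 in E8.5 arrays and 95.1 to 97.1 in E12 arrays. Mcm5 differed by -0.35, Mcm6 by -0.42, Mcm3 by -0.35, Mcm2 by -0.12 and Mcm7 by -0.07 on that scale, none of them called. The differences between subunits were not tested. Mcm10, which helps activate the helicase, fell (-1.22), as did the GINS subunits Gins1 and Gins2 (-1.06 and -1.31), as deposited, with quantile values of -0.22, -0.13 and -0.36 that were not called.

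At the replication fork, Pcna read 12.20, 12.26, 12.59 and 12.62 at E8.5 and 10.35, 11.29, 10.87 and 11.09 at E12. That is a fall of 1.52 (SE 0.21, adjusted p = 0.00206) with no overlap of the stages, beside -0.03 after quantile normalization. Rrm2, the regulated subunit of ribonucleotide reductase, fell by 1.51 and differed by -0.05 on the quantile scale. Its partner Rrm1 differed by -0.54 as deposited (SE 0.26, adjusted p = 0.143) and rose by 0.63 after quantile normalization (adjusted p = 0.0368), with percentiles of 91.7 to 94.7 in E8.5 arrays and 95 to 96.9 in E12 arrays. Rrm2 lay at 98.1 to 99.1 over all arrays. Another Rrm1 probe set, dimmer by mean level (8.79 against 10.22), fell by 1.05 as deposited (adjusted p = 0.014). Prim1, the catalytic primase subunit, fell by 0.88 and stood at 0.23 on the quantile scale, not called. Tyms was dim, at 5.29 to 7.15 in all arrays, and its difference of -0.80 was not called (adjusted p = 0.114). On the quantile scale it was -0.87, not called (adjusted p = 0.0601). Its percentiles were 46.9 to 64.6 in E8.5 arrays and 36.7 to 38.8 in E12 arrays, with no overlap.

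The cyclins took different courses. Ccne2, a cyclin of the G1 to S transition, read 9.66, 8.69, 9.45 and 9.41 at E8.5 and 5.52, 7.17, 6.98 and 7.46 at E12. All E12 arrays lay below all E8.5 arrays. The difference was -2.52 (SE 0.40, adjusted p = 0.00317) and, after quantile normalization, -1.93 (adjusted p = 0.0145), and the mean percentile went from 86.2 to 62.5. The brightest probe set of its relative Ccne1 went the other way, from 11.06, 9.54, 10.78 and 10.52 to 11.66, 11.54, 11.28 and 11.35 (0.98, SE 0.32, adjusted p = 0.0458, and 2.33 after quantile normalization, adjusted p = 0.00226). The second Ccne1 probe set, with a mean of 8.49 against 10.97, fell by 1.95 (SE 0.21, adjusted p = 0.000818). The 2 probe sets were called in opposite directions, so no direction can be given for Ccne1 transcript as a whole. The brighter one carries the suffix x_at, which marks probes shared with other transcripts. The brightest probe sets of Mcm4, Mcm5, Mcm6, Rrm2, Cdk4, Aurkb and Cdc20 carry the same suffix. Those of Mcm7, Gins2 and Bub1b carry s_at, which can also mark shared probes. Among the x_at genes, a probe set with neither suffix also fell as deposited for Mcm4 (-1.93), Cdc20 (-1.61), Mcm6 (-1.66), Rrm2 (-1.23) and Cdk4 (-0.70). Others with neither suffix were not called for Rrm2 (-1.16), Cdk4 (-0.35) and Mcm5 (-0.92 and -0.01). The other Aurkb probe set, of suffix s_at, was called lower (-1.30).

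The mitotic cyclins Ccna2 and Ccnb2 fell as deposited (-1.37 and -1.53, adjusted p = 0.0052 and 0.00249) and differed by -0.19 and -0.59 on the quantile scale, not called. Their kinase Cdk1 fell by 1.22 as deposited (adjusted p = 0.00606) and stood at 0.05 after quantile normalization, at percentiles of 96.4 to 97.9 and 95.7 to 98.1. None of the 3 D cyclins, which answer growth signals in G1, was called as deposited by its brightest probe set: Ccnd1 differed by -0.10 (SE 0.47), Ccnd2 by 0.43 (SE 0.66) and Ccnd3 by -0.12 (SE 0.20). After quantile normalization Ccnd3 rose by 0.81 (adjusted p = 0.0167), with percentiles of 81.8 to 89.4 in E8.5 arrays and 89.4 to 93.7 in E12 arrays. Both dimmer Ccnd3 probe sets (means 6.13 and 4.15 against 9.10) rose as deposited, by 0.81 (adjusted p = 0.0211) and 0.38 (adjusted p = 0.0304). The E8.5 values of Ccnd2 were 7.83 in wild type replicate 1 against 11.03, 10.25 and 10.81 in the other arrays. Ccnd1 showed the same array low, at 7.18 against 9.32, 9.12 and 8.51. That array also held the high trophoblast markers, whose part in these values was not tested. Without it the stage difference as deposited was -0.37 for Ccnd2 and -0.64 for Ccnd1. On the quantile scale, with all arrays, Ccnd2 differed by 1.58 (adjusted p = 0.0797) and Ccnd1 by 0.67 (adjusted p = 0.284), neither called. The percentiles of Ccnd2 were 72 to 96 in E8.5 arrays and 97 to 98 in E12 arrays, with no overlap.

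Cdk4, the kinase of the D cyclins, differed by -0.54 as deposited (SE 0.20, adjusted p = 0.0734) and rose by 0.93 on the quantile scale (SE 0.14, adjusted p = 0.00375). A second probe set of similar brightness (mean 11.13 against 11.58) fell by 0.70 as deposited (adjusted p = 0.0329), so the direction for Cdk4 depends on the scale. It held percentiles of 97.3 to 98.7 in E8.5 arrays and 99.2 to 99.4 in E12 arrays, with no overlap. Cdk2, the kinase of cyclins E and A, spanned 6.41 to 8.39 at E8.5 alone and was called on neither scale (-0.51 and -0.03).

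Of the spindle checkpoint genes, Bub1 differed most by its brightest probe set. It read 9.51, 10.24, 10.14 and 10.18 at E8.5 and 6.78, 8.11, 8.10 and 8.25 at E12, a fall of 2.21 (SE 0.31, adjusted p = 0.00216) with no overlap of the stages. After quantile normalization it fell by 1.39 (adjusted p = 0.0158), and its mean percentile went from 91.1 to 77.6. The dimmer Bub1 probe set (mean 6.04 against 8.91) differed by -0.39 as deposited and was not called (adjusted p = 0.132). Mad2l1 fell on both scales (-1.81 and -0.70, adjusted p = 0.0011 and 0.0151), and so did Cdc20, the target of the checkpoint (-1.79 and -0.52, adjusted p = 0.000513 and 0.0494). Bub1b fell by 1.32 as deposited and differed by -0.26 on the quantile scale, not called.

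Kif11, a motor that separates the spindle poles, went from 8.45, 8.63, 8.75 and 8.57 to 6.32, 7.35, 7.40 and 7.60, and fell on both scales (-1.43 and -0.85, adjusted p = 0.0035 and 0.0371). Top2a, the topoisomerase that untangles chromosomes, fell by 1.84 as deposited (adjusted p = 0.00423) and differed by -0.56 on the quantile scale (adjusted p = 0.138). Mki67, the proliferation marker that coats mitotic chromosomes, read 11.54, 12.66, 11.85 and 12.05 at E8.5 and 9.34, 11.09, 10.84 and 10.83 at E12. It fell by 1.5 as deposited (SE 0.42, adjusted p = 0.0279) and stood at -0.11 after quantile normalization, with mean percentiles of 98.1 and 97.6. Birc5, an inhibitor of cell death and part of the chromosomal passenger complex, the centromere histone Cenpa and the kinase Aurkb fell as deposited (-1.29, -0.99 and -0.71), and none was called on the quantile scale (-0.25, 0.26 and -0.001). The dimmest probe sets of Top2a (mean 4.74) and Cenpa (mean 3.42) went the other way as deposited, rising by 0.58 (adjusted p = 0.0469) and 0.78 (adjusted p = 0.0242).

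Aurka and Plk1, kinases of mitotic entry, were not called on either scale (-1.18 and -0.33 as deposited, -0.16 and 0.78 after quantile normalization). Both split the E8.5 arrays by replicate number and not by genotype. Aurka read 10.71 and 9.29 in the wild-type pair against 10.99 and 9.5 in the knockout pair, and Plk1 10.52 and 9.39 against 10.86 and 9.61. Replicate 1 was higher by 1.13 to 1.49. The 3′ minus 5′ difference of the actin control was 1.48 and 1.56 in these 2 arrays and 2.61 and 2.50 in replicate 2, and its part in the split was not tested. Over all 40 genes, the replicates differed in the same direction in both genotypes for 25 at E8.5 (62.5%), beside 60.7% of all genes, and for 30 at E12 (75%), beside 59.4%.

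Cdkn1b, the p27 inhibitor that holds cells in G1, fell by 1.54 as deposited (SE 0.47, adjusted p = 0.0365). Its E8.5 arrays read 6.89, 9.14, 8.20 and 8.24 and its E12 arrays 6.18, 6.76, 6.64 and 6.73, so the stages did not overlap, and E8.5 wild type replicate 1 was again the low one. The dimmer Cdkn1b probe set (mean 6.14 against 7.35) rose by 0.38 (adjusted p = 0.0384), so the 2 probe sets were called in opposite directions here too and no direction can be given for the gene. On the quantile scale the difference of the brighter one, -1.13, was not called (adjusted p = 0.0773). Cdkn1a, the p21 inhibitor, differed by -0.04 (SE 0.27) and 0.51 on the 2 scales and was not called.

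**Figure D4:**
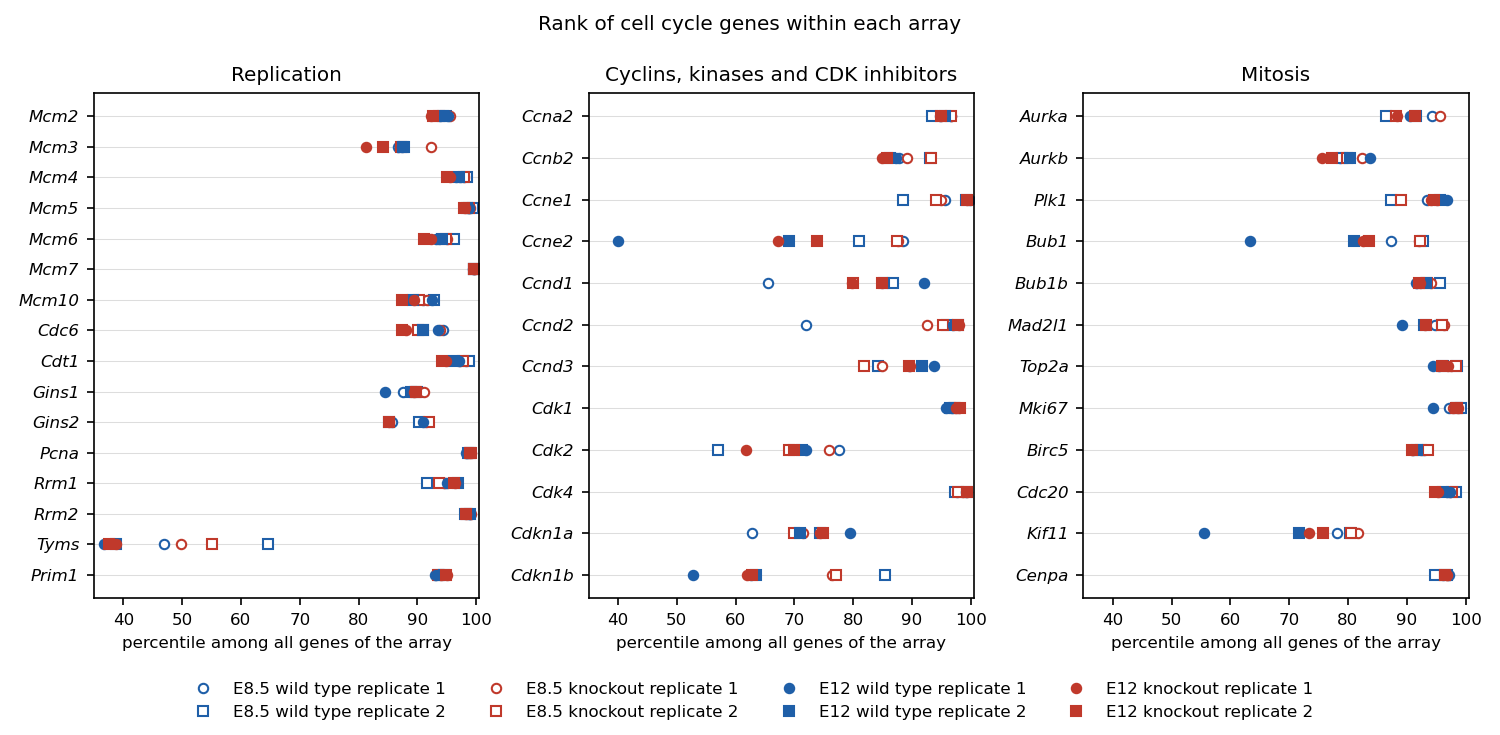
Percentile of each of the 40 genes among the 18193 genes of the same array. Open symbols are E8.5 and filled ones E12, wild type is blue and knockout red, and replicate 1 is a circle and replicate 2 a square. Mcm7 stays at 99.5 to 99.8, Cdk4 and Ccnd3 move right at E12, and Ccne2, Bub1 and Kif11 move left, with E12 wild type replicate 1 the lowest for all 3.

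The stage difference was similar in count in the 2 genotypes. In wild type 24 of the 40 fell, beside 27.8% of all probe sets called (15.7% lower), and in knockout 26 fell, beside 25.6% (14.1% lower). Of these, 23 were called in both. How many of all probe sets were called in both was not counted, and the 2 comparisons share an estimate of the spread. Prim1 was called in wild type alone (-0.97, against -0.79 in knockout), and Mcm3, Ccna2 and Aurkb in knockout alone (-1.62, -1.60 and -1.02, against -0.85, -1.15 and -0.41 in wild type). The test of the difference itself called none of the 40, with 0.00444% of all probe sets called. The differences in wild type and knockout were -2.09 and -2.05 for Cdt1, -2.43 and -1.99 for Bub1, and -2.84 and -2.21 for Ccne2. Ccne1 stood at 1.30 and 0.66 and Mki67 at -1.89 and -1.11, not called in either genotype. The counts changed when single arrays were left out, as did the share of all probe sets called. Leaving out a knockout array changes no wild-type difference and alters only the shared estimate of the spread. The counts within each genotype are thus not firm. With the arrays of 1 genotype alone the count was 1 in wild type and 33 in knockout, beside 4.58% and 44.1% of all probe sets. On the quantile scale 5 were called in wild type (Cdt1, Ccne2 and Bub1 lower, Ccne1 and Cdk4 higher), beside 20.4% of all probe sets, and 4 in knockout (Cdt1 and Mcm4 lower, Ccne1 and Cdk4 higher), beside 17.6%.

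The other genes of the same pathways, from lists of 35 further replication genes, 34 mitotic genes, 26 regulators and 5 inhibitors, were read in the same fit. As deposited, 30 of the replication genes and 30 of the mitotic genes fell and none rose (medians -1.40 and -1.38). Among all genes 26.8% fell and 23.5% rose. After quantile normalization, 19 of the replication genes fell and 2 rose (median -0.61), and 14 of the mitotic genes fell and 1 rose (median -0.54). On that scale 16.8% of all genes fell and 24.2% rose. Gmnn, the inhibitor of Cdt1, spanned 11.54 to 11.79 over the E8.5 arrays and 8.93 to 9.47 over the E12 arrays. It fell by 2.49 (SE 0.15, adjusted p = 0.000167), and by 1.29 on the quantile scale (adjusted p = 0.000567). Orc1, the origin recognition subunit that leaves chromatin after G1, fell on both scales (-2.38 and -2.12), as did Orc5 (-1.76 and -1.27) and the single-strand binding protein Rpa1 (-2.14 and -0.78). The mitotic regulator Mybl2, which works with CHR elements, fell on both scales (-2.05 and -1.80), as did the cytokinesis genes Anln (-2.18 and -1.28) and Kif20a (-1.90 and -1.28). Cdca8, a subunit of the chromosomal passenger complex, fell by 1.87 as deposited, with a quantile value of -0.39 that was not called.

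Among the regulators 7 rose and 11 fell as deposited (9 and 3 after quantile normalization). Beside them, 23.5% of all genes rose and 26.8% fell as deposited (24.2% and 16.8% after quantile normalization). E2f5, a repressor of the E2F family that works with the pocket proteins, read 9.55, 8.29, 9.82 and 9.77 at E8.5 and 13.02, 12.76, 12.86 and 12.89 at E12. It rose by 3.52 (SE 0.27, adjusted p = 0.000306) and by 4.56 on the quantile scale, with no overlap of the stages. Against it, the phosphatase Cdc25a (-1.57 and -0.53) and the activator E2f3 (-1.16 and -0.40) fell on both scales, and the repressor E2f7 fell by 1.13 as deposited, with a quantile value of -0.24 that was not called. Of the INK4 inhibitors of Cdk4, Cdkn2d rose by 1.30 and 1.60 and Cdkn2c by 1.38 and 1.52 on the 2 scales. Cdkn2a fell by 0.76 on the quantile scale (adjusted p = 0.0304) and was not called as deposited (-0.58). Cdkn1c, the p57 inhibitor, differed by -0.63 as deposited (adjusted p = 0.0508) and rose by 0.86 after quantile normalization (adjusted p = 0.0238). The stage also carried a large change of cell types, with 11 of 12 neuronal and 10 of 10 skeletal muscle markers rising (medians 3.43 and 2.19). Of 13 red-cell markers 6 rose and 1 fell (median 2.42), and of 10 trophoblast markers 1 rose and 4 fell (median -1.97). The part of all of these in the values above was not tested.

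The second question of the design was whether loss of Runx1 changed these genes. No difference passed the adjusted threshold for any of the 40 genes at E8.5 (0.0% of all probe sets called), at E12 (0.0133%), averaged over stages (0.00222%) or in the difference between stages, by limma, and 0 were called on the quantile scale (0.0%, 0.0111% and 0.00222% of all probe sets in the first 3). At an unadjusted p below 0.05 there were 1, 2, 1 and 2 genes, beside 4.73%, 1.58%, 4.36% and 1.87% of all probe sets. The standard errors of the knockout difference at each stage ran from 0.17 to 0.94 with a median of 0.31, and the 95% interval for Mcm7, for example, was -0.49 to 0.76 at E8.5.

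At E8.5, 29 of the 40 were higher in knockout and 11 lower, with a median of 0.17, while 47.7% of all genes were higher. The 2 genotypes did not overlap for 8 (7 higher, 1 lower), beside 29.1% of all genes. E8.5 wild type replicate 1 was the lowest E8.5 array for 20 of the 40, beside 28.8% of all genes. In the replication subset Cdt1 (-0.57), Gins2 (0.51) and Pcna (0.37) had the larger values, in the cyclins and kinases Ccnd2 (1.10), Ccnd1 (0.57) and Ccnd3 (-0.49), and in the mitosis subset Cenpa (0.33), Bub1 (0.29) and Plk1 (0.29). The values of Ccnd2 and Ccnd1 turned to -0.50 and -0.50 without E8.5 wild type replicate 1, the array with high trophoblast markers, and were 2.70 and 1.64 without the other wild-type array. In that last fit Ccnd2 and Cdkn1b (1.33) were called, 2 of the 40 beside 4.31% of all probe sets, with E8.5 wild type represented by the trophoblast-rich array alone and assumed to vary like the other groups.

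At E12, 25 of the 40 were lower in knockout and 15 higher, with a median of -0.09, while 48.8% of all genes were higher. The genotypes did not overlap for 14 genes as deposited (13 lower, 1 higher), beside 30.6% of all genes. By percentile this was the case for 25 genes (17 lower, 8 higher), beside 35.4% of all genes. The genes with lower ranks in both knockout arrays included Mcm2, at 95.2 and 94.4 in wild type against 92.3 and 92.6 in knockout, Mcm3 at 87.4 and 87.6 against 81.3 and 84.2, and Mcm4, Mcm5 and Mcm6. Their log2 differences were -0.40, -0.43, -0.34, -0.28 and -0.31, all with adjusted p = 1.0. Cdc6 (-0.55), Ccnd1 (-0.62), Ccnd3 (-0.40) and Aurkb (-0.44) also had lower means in knockout. Mki67 (0.62), Bub1 (0.73), Kif11 (0.66) and Ccne2 (0.88) had higher means in knockout. In each of these 4 E12 wild type replicate 1 was the low array: Mki67 read 9.34 there and 11.09, 10.84 and 10.83 elsewhere, and without it its knockout difference was -0.25. Replicate 2 of wild type was the highest E12 array for 29 of the 40 genes, beside 25.6% of all genes. It also had the highest level at the 95th percentile (9.92 against 9.44 to 9.75) and the highest red-cell sum (15.09 against 14.03 to 14.54, 13 of 13 markers above the stage mean). Neuronal markers summed to 11.39 and 12.11 in wild type against 12.05 and 12.15 in knockout. The part of these in the knockout differences was not tested.

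**Figure D5:**
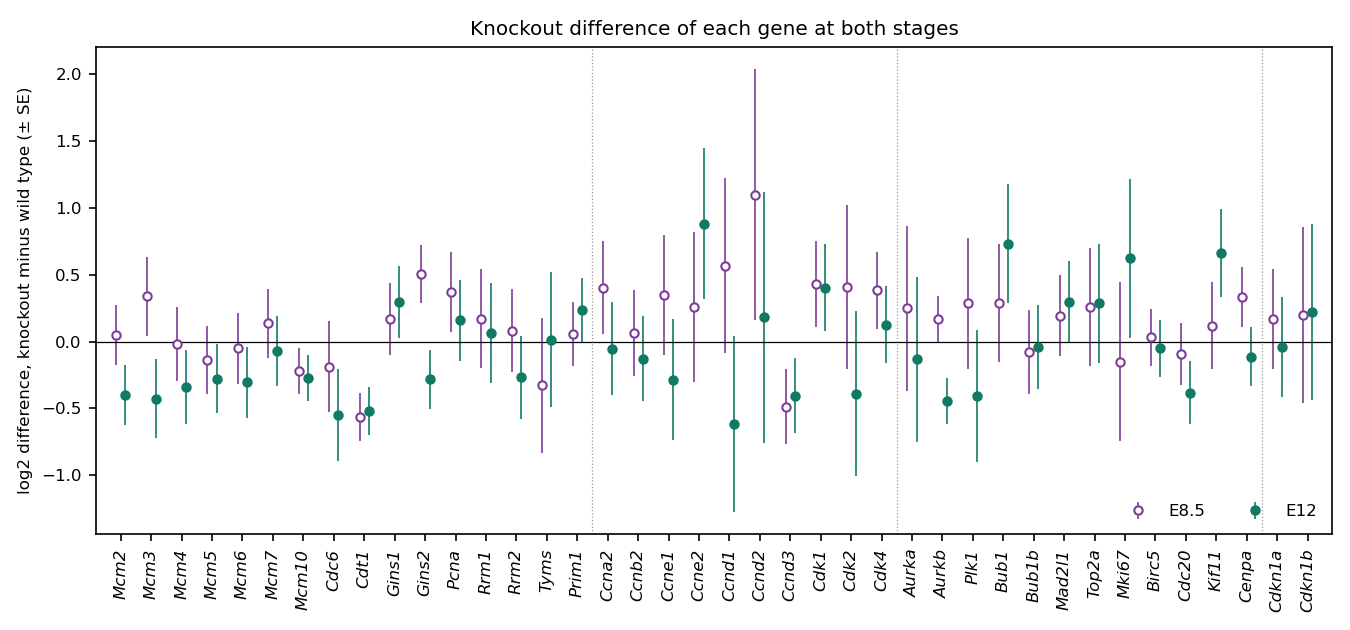
Log2 difference, knockout minus wild type, for each gene at E8.5 (open) and E12 (filled), with bars of 1 SE from the limma fit on 8 arrays, 2 per group. Cdt1 lies below 0 at both stages (-0.57 and -0.52), while most other values change sign or lie within 2 SE of 0, and Ccnd2 has the widest bars (SE 0.94).

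Cdt1 was the gene with both knockout arrays below both wild-type arrays at each stage. It was lower in knockout by 0.57 at E8.5 (SE 0.18, 95% interval -1.0 to -0.14) and by 0.52 at E12 (SE 0.18, interval -0.95 to -0.09). Averaged over stages the difference was -0.54 (SE 0.13, interval -0.85 to -0.24), with a limma p of 0.00423 before and an adjusted p of 1.0 over all probe sets, so it is not called. It was the 1 gene of the 40 past the study's threshold of an absolute moderated t above 3, at E8.5 (2.06% of all probe sets) and averaged over stages (1.79%). At E12 its t was -2.91 and none passed. After quantile normalization 0 of the 40 passed at E8.5 and 1 averaged over stages, and with normal scores of ranks 0 passed in either. Averaged over stages, Ccnd3 (-0.45), Cdc6 (-0.37) and Mcm10 (-0.25) were next on the lower side, and Ccnd2 (0.64), Ccne2 (0.57), Bub1 (0.51), Cdk1 (0.42), Kif11 (0.39), Top2a (0.27) and Pcna (0.26) on the higher side. The inhibitors Cdkn1b and Cdkn1a stood at 0.21 and 0.06. The change of the knockout difference from E8.5 to E12 was called for none of the 40, with the larger values -0.79 for Gins2, -0.77 for Mcm3 and -0.45 for Mcm2 in the replication subset, -1.19 for Ccnd1, -0.92 for Ccnd2 and -0.80 for Cdk2 in the cyclins and kinases, and 0.77 for Mki67, -0.69 for Plk1 and -0.61 for Aurkb in the mitosis subset. The standard errors of these were large for Ccnd1 (0.93), Ccnd2 (1.33) and Cdk2 (0.868).

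In the further pathway genes no knockout difference was called either. Cdkn1c read 13.40 and 12.49 in wild type against 11.63 and 11.53 in knockout at E8.5, a difference of -1.36 (SE 0.30, limma adjusted p = 0.959), with no overlap of the genotypes and the highest value in the array with high trophoblast markers. E2f7 differed by -0.77 (SE 0.17, adjusted p = 0.959), Pkmyt1, an inhibitory kinase of Cdk1, by -0.52, Mybl2 by -0.75, Racgap1 by -0.30, Uhrf1 by -0.64, Rpa3 by 0.50 and Cdkn2c by -0.35 at E8.5. At E12 the replication genes named by the same rule were Lig1, a DNA ligase (-0.45), and Orc3 (0.35), and the mitotic genes Incenp (-0.54) and Cdca8 (-0.37), both of the passenger complex. The regulators were Cdc25b (-0.37) and E2f8 (-0.26) and the inhibitors Cdkn2c (-0.58) and Cdkn2d (-0.31).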

How the data were processed

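Gene expression was measured on 8 one-colour Affymetrix mouse arrays, 2 for each of 4 groups taken from the sample labels. The authors normalized the arrays by RMA (robust multi-array averaging) and deposited 1 linear intensity for each probe set. Their software versions were not stated in the labels or methods. Values were log2-transformed without a pseudocount. Of 45101 probe sets, 64 controls were left out and 45037 tested. Platform symbols, updated through a RefSeq table (GRCm38.p6), gave 1 gene to 34945 probe sets, several to 932 and none to 9160. The 40 genes had 97 probe sets, and 86 of these had the sign of the brightest in the stage comparison. The model (limma 3.58.1, R 4.3.3) gave each group 1 mean over all 8 arrays, and a call needed an adjusted p (Benjamini-Hochberg) below 0.05. The script was tested on simulated data. The number of arrays limits the precision, and p-values reflect only the spread seen between them. Values of genes were named by a written rule: every called gene, or the 3 per subset with the larger differences, and for further pathway lists the 4 (stage) or 2 (knockout) with the largest absolute t. The genes, lists, motifs and tests were chosen with earlier results of these data known.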

Additional observations from a re-analysis of the deposited data

Results flagged for a closer look

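The knockout differences of 2 genes had opposite signs at the 2 stages, with no overlap of the genotypes at either. These are 2 of 40 (5.0%), beside 475 of all 18193 genes (2.61%). Gins2, a subunit of the GINS complex, read 9.29 and 9.82 in wild-type arrays against 10.03 and 10.10 in knockout arrays at E8.5, and 8.79 and 8.49 against 8.32 and 8.39 at E12. Its knockout difference was thus 0.51 and then -0.28, and the change between stages was -0.79 (SE 0.31, limma adjusted p = 1.0). Aurkb, the kinase of the chromosomal passenger complex, read 8.5 and 8.49 against 8.82 and 8.51 at E8.5 and 8.13 and 8.05 against 7.56 and 7.73 at E12. Its values were 0.17 and -0.44, with a difference of -0.61 (SE 0.24, limma adjusted p = 1.0). At E8.5 the nearest Aurkb values of the genotypes lie close together (8.5 and 8.51). Neither gene passed the adjusted threshold.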

How the results depend on the processing

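Deviations of same-numbered arrays correlated at 0.372 between genotypes at E8.5 and 0.173 at E12, and at -0.121 to 0.076 across stages. The labels do not say that a number marks a shared litter or batch, so the arrays were not treated as pairs. The fit with the replicate number as a block called 30 of the 40 genes in the averaged stage comparison, 24 in wild type and 26 in knockout. The shares of all probe sets beside these were 42.7%, 27.3% and 25.0%. In the knockout comparisons it called 0 (0.0% of all probe sets at E8.5, 0.00444% at E12). These were the same counts of genes as without it. The spread between replicates differed by group (SD of the replicate difference 0.833, 0.403, 0.490 and 0.227 in E8.5 wild type and knockout and E12 wild type and knockout), which a shared estimate does not follow. The cause of the changes listed here was not tested.

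Under quantile normalization the stage counts were 11 (averaged), 5 (wild type) and 4 (knockout), beside 36.0%, 20.4% and 17.6% of all probe sets. Under normal scores of ranks they were 9, 4 and 1, beside 37.2%, 19.5% and 16.5%. Of the genes called over the series, read by their brightest probe set, 53.3% were lower as deposited and 40.9% after quantile normalization. The averaged stage difference reversed after quantile normalization and with normal scores for Ccnd1 (0.667 and 0.226), Ccnd3 (0.805 and 0.281), Cdk1 (0.052 and 0.019), Cdk4 (0.927 and 0.369), Cdkn1a (0.508 and 0.168), Cenpa (0.255 and 0.091), Plk1 (0.779 and 0.273), Prim1 (0.225 and 0.077) and Rrm1 (0.628 and 0.221). It thus reversed for these 9 of the 40 genes, and for 16 in wild type (5 higher as deposited, 21 on either other scale) and 11 in knockout (1 and 12). Of the genes called in knockout as deposited, and Mki67, it reversed for Cdk1 (0.067 and 0.026), Cenpa (0.022 and 0.008) and Mki67 (0.301 and 0.118). Of the genes called in wild type as deposited, it reversed for Cdk1 (0.037 and 0.012), Cenpa (0.488 and 0.175), Gins2 (0.073 and 0.025), Mcm2 (0.147 and 0.05), Mcm7 (0.039 and 0.021), Pcna (0.06 and 0.025), Prim1 (0.144 and 0.049) and Rrm2 (0.177 and 0.067). The stage medians were -0.265 (replication), -0.252 (mitosis) and 0.359 (cyclins and kinases) on the quantile scale and -1.64, -1.54 and 0.74 in percentile points. In percentile points the knockout medians of the same subsets were 0.16, 1.07 and 2.01 at E8.5 and -1.03, -0.31 and -0.22 at E12.

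With the median over a gene's probe sets, the stage difference turned to -0.484 for Ccne1 (-0.324 in wild type, -0.644 in knockout) and 0.812 for Ccnd3, the E8.5 knockout difference of Cenpa to -0.23 and the difference between stages of Cdkn1b to -0.01. At an absolute t above 3, 1 gene passed in the E8.5 knockout comparison and 1 averaged over stages, beside 2.06% and 1.79% of all probe sets. With the arrays of wild type alone 1 gene was called between stages, beside 4.58%.

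Leaving out each array in turn, the number called ranged from 12 to 25 for stage in wild type, 5 to 31 for stage in knockout, 0 to 2 for knockout at E8.5 and 0 to 1 for knockout averaged over stages. The share of all probe sets called changed with the array left out as well. These counts alone thus do not show that calls were less stable for the cell cycle genes than for other genes. The median of cyclins and kinases ranged from -0.796 to -0.368 between stages and from 0.104 to 0.531 for knockout at E8.5, and that of replication genes for knockout at E12 from -0.476 to -0.012. The averaged stage difference ranged from -0.639 to 0.431 for Ccnd1, -0.369 to 1.233 for Ccnd2, -0.323 to 0.074 for Ccnd3 and -0.333 to 0.247 for Cdkn1a. The E8.5 knockout difference ranged from -0.503 to 2.702 for Ccnd2, -0.502 to 1.637 for Ccnd1, -0.078 to 0.656 for Bub1, -0.338 to 0.909 for Plk1, -0.929 to 1.326 for Cdkn1b and -0.413 to 0.748 for Cdkn1a. At E12 it ranged from -0.252 to 1.501 for Mki67, -0.072 to 0.509 for Cdkn1b and -0.28 to 0.201 for Cdkn1a. Averaged over stages it ranged from -0.16 to 1.442 for Ccnd2, -0.011 to 0.555 for Top2a, -0.355 to 0.772 for Cdkn1b and -0.226 to 0.354 for Cdkn1a. The difference between stages ranged from -2.519 to 0.685 for Ccnd2, -1.79 to 0.191 for Cdk2, -0.102 to 1.651 for Mki67, -0.788 to 0.373 for Cdkn1a and -1.108 to 1.147 for Cdkn1b. For Ccnd1, Ccnd2, Cdkn1b and Bub1 the E8.5 extremes came from leaving out one or the other E8.5 wild-type array, and for Plk1 from the E8.5 knockout arrays. Ccnd2 was called without E8.5 wild type replicate 2, both in the E8.5 knockout comparison and averaged over stages.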

Other observations

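Over the 8 arrays, the genes whose levels followed Mki67 most closely, of 18192 compared, were Pnn (Pearson r = 0.995), Upf2 (0.991), Ankrd16 (0.991), Luc7l3 (0.990) and Erlec1 (0.990), none of them in the cell cycle lists. Among the 40 genes the values were 0.952 for Bub1, 0.941 for Top2a and 0.940 for Kif11. The points share 4 groups and the stage difference in the bright end of the arrays, so the correlations are descriptions.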
